A study of Mus musculus with 6 samples.

Results

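NRF2 antioxidant genes and Sod2 were examined in bone marrow-derived macrophages (BMDMs) at 1 h after lipopolysaccharide (LPS), the endotoxin of Gram-negative bacteria. The 10 genes were Nfe2l2, Keap1, Hmox1, Nqo1, Gclm, Gclc, Srxn1, Txnrd1, Slc7a11 and Sod2. They were chosen by symbol in GENCODE M21, and all 10 were found among the 55335 genes of the count table and passed the filter on low counts, which kept 15687 genes. The study sequenced total RNA from wild-type C57BL/6 BMDMs in 3 libraries given PBS and 3 given LPS. The cells were grown from the femur and tibia of mice with L929-conditioned medium, and the study's methods state young adult male mice throughout. The LPS dose of this experiment and whether each library came from its own mouse are not given in the sources used here, so the p-values below measure only the spread between libraries, which may be technical. The labels pose a single comparison, LPS against PBS at 1 h.

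NRF2, the product of Nfe2l2, is a basic leucine zipper transcription factor that binds antioxidant response elements together with a small MAF protein. In resting cells KEAP1 holds NRF2 in the cytoplasm and delivers it to a CUL3 ubiquitin ligase, and oxidants or electrophiles that modify KEAP1 let NRF2 accumulate. Its known targets make and recycle glutathione and thioredoxin and break down heme and quinones. Sod2, the mitochondrial superoxide dismutase, is a known target of NF-kB, the main transcription factor downstream of LPS in macrophages. NRF2 is controlled largely at the level of the protein, which these RNA counts do not measure.

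Promoter sequences are shown for 4 of the genes with a motif match, picked with their RNA responses known. Txnrd1 and Gclm hold the same motif, and no relation between motif and response was tested. RefSeq gave a window for 8 of the 10 genes (GRCm38.p6), with 3 start sites for Txnrd1. Hmox1 and Gclc had no window. The 250 bases before each start were searched on both strands for the antioxidant response element core TGACNNNGC, the AP-1 site TGANTCA, which can share its TGAC letters with that core, and the NF-kB consensus. Of 32851 such windows of all genes, 10.2% held the first, 6.75% the second and 3.90% the third. Each stretch below runs 5′ to 3′ on the gene's strand from 180 to 31 bases before the start, and capitals mark the matches.
Srxn1: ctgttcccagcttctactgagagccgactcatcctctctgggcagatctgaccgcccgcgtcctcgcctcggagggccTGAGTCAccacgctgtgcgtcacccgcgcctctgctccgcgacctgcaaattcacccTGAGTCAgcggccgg
Txnrd1: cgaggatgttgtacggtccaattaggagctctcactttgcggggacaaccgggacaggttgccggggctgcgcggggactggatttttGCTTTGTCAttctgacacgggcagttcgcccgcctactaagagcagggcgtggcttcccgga
Gclm: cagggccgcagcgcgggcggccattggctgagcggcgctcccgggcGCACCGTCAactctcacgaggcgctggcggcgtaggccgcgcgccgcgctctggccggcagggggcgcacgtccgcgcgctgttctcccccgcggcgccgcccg
Sod2: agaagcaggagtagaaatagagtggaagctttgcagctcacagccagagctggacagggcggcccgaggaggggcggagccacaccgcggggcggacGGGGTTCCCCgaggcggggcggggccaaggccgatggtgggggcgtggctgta
All 4 genes lie on the plus strand. The Srxn1 stretch (chr2:152105344-152105493) held the AP-1 site at 102 to 96 and again at 45 to 39 bases before the start. With the bases after it, the nearer site reads TGAGTCAGC. This departs from the searched antioxidant response element core only in a G in place of the C of its TGAC. Such variants of the core were not searched in any window. The Txnrd1 stretch (chr10:82859026-82859175, the second of its 3 starts) held the antioxidant response element core on the other strand, at 92 to 84 bases before the start. The Gclm stretch (chr3:122245377-122245526) held the same core, also on the other strand, at 134 to 126 bases before the start. The Sod2 stretch (chr17:13007659-13007808) held the NF-kB consensus at 83 to 74 bases before the start. Outside these stretches, the only match was an antioxidant response element core of Nfe2l2 itself, at 240 to 232 bases before its start. None of the 3 motifs was found in the windows of Keap1, Nqo1 and Slc7a11, which says only that these letters are not in these windows. The Srxn1 and Gclm stretches lie before the GENCODE M21 gene, and the Txnrd1 and Sod2 stretches lie inside the M21 gene, whose earliest transcript starts further upstream, without touching its exons. A match is a description of the sequence and was not tested for binding.

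After 1 h of LPS, RNA of the cystine transporter gene Slc7a11, of Sod2, of the thioredoxin system genes Txnrd1 and Srxn1, of Nfe2l2 and of Gclc was higher, and RNA of the inhibitor gene Keap1 was lower. Hmox1, Nqo1 and Gclm, which are among the best-known NRF2 targets, did not pass the test. Values are CPM, read counts relative to library size, normalized by TMM factors. A gene was called where the p of edgeR's quasi-likelihood test, adjusted by the Benjamini-Hochberg method over the 15687 genes, was under 0.05. By this rule 6 of the 10 genes rose, against 32.9% of all tested genes, and 1 of 10 fell, against 34.9%. With an absolute log2 fold change above 1 required as well, 5 of 10 rose, against 10.5% of all tested genes, and 1 of 10 fell, against 10.4%. The median log2 fold change of the 10 genes was 1.28 and that of all tested genes was -0.01. The 10 genes were chosen with earlier results of these data known, so these comparisons are no test of the genes as a set. With library size alone in place of TMM, the median of all tested genes shifted by -0.40, and 1213 genes rose and 2964 fell past both criteria, against 1653 and 1624 with TMM and 1467 and 1975 with upper quartile scaling. Every fold change below drops by about that amount under it. In bulk RNA, a change in the share of cells that express a gene cannot be told apart from a change in its RNA per cell.

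**Figure D1:**
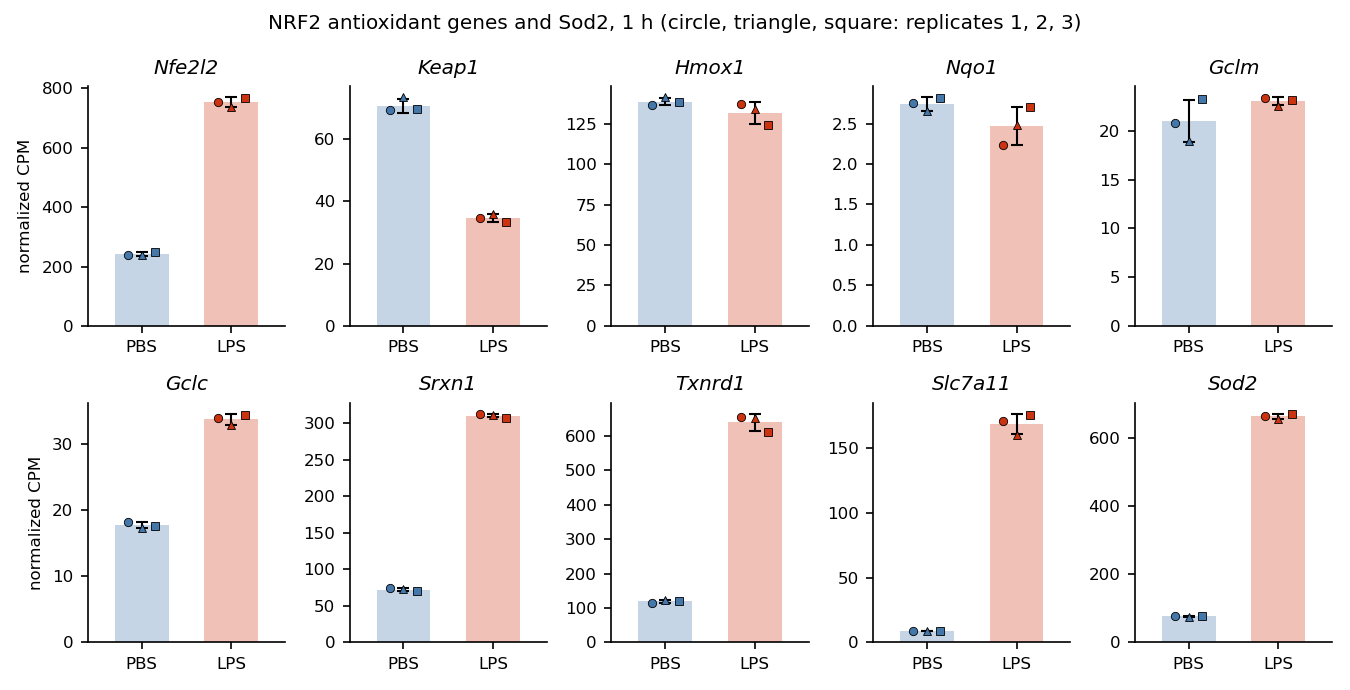
Normalized CPM of each of the 10 genes in the 3 PBS and 3 LPS libraries at 1 h. Each panel has its own linear axis from 0, bars are means, error bars are SD (n = 3) and the marker shapes are replicates 1 to 3. The groups overlap for Hmox1, Nqo1 and Gclm and are apart for the other genes, with Keap1 lower and the rest higher with LPS. Of all tested genes, 32.9% rose and 34.9% fell by the edgeR test. The share of them with separate groups was not counted, so separation cannot be read as particular to these genes.

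The regulator genes moved in opposite directions. Nfe2l2 (ENSMUSG00000015839, GRCm38 chromosome 2, 75675513 to 75704641, minus strand) had 11412, 10792 and 11470 counts in PBS libraries 1 to 3 and 25372, 24021 and 26151 in LPS libraries 1 to 3. The lowest LPS library had more than 2 times the counts of the highest PBS library, and the groups did not overlap. Its normalized level rose from 242 ± 5.39 to 753 ± 16.4 CPM (SD, n = 3 each), log2 fold change 1.64 ± 0.03 (SE; edgeR adjusted p = 8.98e-18). Within the batches that the labels number 1 to 3, as they do the replicates, the log2 ratio was 1.66, 1.62 and 1.63. Keap1 (ENSMUSG00000003308, chromosome 9, 21229730 to 21239361, minus strand) had 3298, 3314 and 3207 counts with PBS and 1165, 1176 and 1135 with LPS. All LPS libraries were far below all PBS libraries. The level fell from 70.7 ± 2.29 to 34.7 ± 1.34 CPM (SD, n = 3 each), log2 fold change -1.03 ± 0.04 (SE; edgeR adjusted p = 2.86e-13). Keap1 lay close to the fold criterion, and without PBS replicate 2 its log2 fold change was -0.9997, so that 0 of the 10 genes then fell past both criteria. An antisense gene, Gm16754, shares 510 of the 4693 exonic bases of Keap1 but had at most 7 counts in any library. The ratio of Nfe2l2 to Keap1 within a library, which no scaling between libraries can alter, was 4.28, 4.03 and 4.42 per unit of exon length in PBS libraries and 26.9, 25.3 and 28.5 in LPS libraries. It was 6.34-fold higher with LPS. For this and the other 5 ratios below, an exact two-sided permutation test gave p = 0.1 (0.1 after Benjamini-Hochberg adjustment over the 6 ratios), the smallest p that 3 libraries against 3 allow.

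Txnrd1 and Srxn1, which serve the thioredoxin and peroxiredoxin systems, both rose. Txnrd1 encodes the cytosolic thioredoxin reductase, a selenoprotein that uses NADPH to keep thioredoxin reduced. Txnrd1 (ENSMUSG00000020250, chromosome 10, 82833951 to 82897712, plus strand) had 5454, 5562 and 5496 counts with PBS and 21942, 21323 and 20799 with LPS, and the groups were far apart. Its level rose from 119 ± 4.29 to 639 ± 24.5 CPM (SD, n = 3 each), log2 fold change 2.43 ± 0.04 (SE; edgeR adjusted p = 1.76e-19). The mitochondrial reductase gene Txnrd2 had a log2 fold change of 0.06 (edgeR adjusted p = 0.375). The ratio of Txnrd1 to Txnrd2 per exon length was 4.70, 5.03 and 4.93 in PBS libraries and 25.9, 24.4 and 25.2 in LPS libraries, 5.15-fold higher. Eid3, a gene inside Txnrd1 on the same strand that shares none of its exonic bases, had 105, 120 and 103 counts with PBS and 898, 955 and 848 with LPS. Whether its counts include unspliced Txnrd1 RNA was not tested, and it was singled out after its values were seen. Srxn1 encodes sulfiredoxin, which repairs overoxidized peroxiredoxins. Srxn1 (ENSMUSG00000032802, chromosome 2, 152105516 to 152111376, plus strand) had 3511, 3274 and 3267 counts with PBS and 10463, 10153 and 10465 with LPS, again with no overlap. Its level rose from 72.3 ± 1.47 to 310.1 ± 2.30 CPM (SD, n = 3 each), log2 fold change 2.10 ± 0.03 (SE; edgeR adjusted p = 1.16e-19).

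Cystine uptake and glutathione synthesis genes differed among themselves. SLC7A11, also called xCT, is the light chain of an exchanger that imports cystine for glutathione synthesis. Slc7a11 (ENSMUSG00000027737, chromosome 3, 49892526 to 50443614, minus strand) had 438, 401 and 416 counts with PBS and 5740, 5243 and 5973 with LPS. The lowest LPS library was more than 10 times the highest PBS library. Its level rose 18.7-fold, from 9.03 ± 0.162 to 169 ± 7.63 CPM (SD, n = 3 each), log2 fold change 4.23 ± 0.05 (SE; edgeR adjusted p = 7.94e-22). This was the largest log2 fold change of the 10 genes, and 261 of the 15687 tested genes had a higher one. Its partner Slc3a2, the heavy chain of this and other amino acid exchangers, rose by a log2 fold change of 1.29 ± 0.04 (SE; edgeR adjusted p = 2.32e-15). The ratio of Slc7a11 to Slc3a2 per exon length was 0.0247, 0.0216 and 0.0221 in PBS libraries and 0.176, 0.163 and 0.185 in LPS libraries, 7.67-fold higher. Gm37498, an unspliced annotation on the same strand within Slc7a11 that shares none of its exonic bases, had 9, 2 and 8 counts with PBS and 280, 283 and 322 with LPS. Like Eid3 it was singled out after its values were seen, and whether its reads come from unspliced Slc7a11 RNA was not tested.

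Glutamate-cysteine ligase, the enzyme that limits glutathione synthesis, has a catalytic subunit encoded by Gclc and a modifier subunit encoded by Gclm. Gclc (ENSMUSG00000032350, chromosome 9, 77754535 to 77794485, plus strand) had 866, 782 and 816 counts with PBS and 1141, 1072 and 1172 with LPS. Its level rose from 17.7 ± 0.441 to 33.8 ± 0.823 CPM (SD, n = 3 each), log2 fold change 0.93 ± 0.05 (SE; edgeR adjusted p = 8.96e-12), which did not reach the fold criterion. With library size alone it was 0.52 (edgeR adjusted p = 3.04e-08). Gclm (ENSMUSG00000028124, chromosome 3, 122245557 to 122270732, plus strand) had 990, 854 and 1072 counts with PBS and 783, 737 and 788 with LPS. In normalized CPM these were 20.8, 18.9 and 23.2 with PBS and 23.3, 22.6 and 23.2 with LPS, so that PBS library 3 lay within the range of the LPS libraries. On the log2 scale the difference was 0.13 ± 0.07 (SE; edgeR adjusted p = 0.0796). The value depended on the model and the scaling. It passed the test in the fit blocked by replicate number (0.14, adjusted p = 0.0307), with DESeq2's size factors (0.15, adjusted p = 0.0486) and without PBS replicate 3 (0.21, adjusted p = 0.00716), all by edgeR. It was -0.0086 with upper quartile scaling (adjusted p = 0.916) and -0.27 with library size alone (edgeR adjusted p = 0.00115). The ratio of Gclm to Gclc is free of that choice. Per exon length it was 0.684, 0.654 and 0.786 in PBS libraries and 0.411, 0.412 and 0.402 in LPS libraries. The lowest PBS library was above the highest LPS library, and the mean log2 ratio differed by -0.79 (standard error 0.08). Overlapping transcripts were small beside Gclm, since Gm17494 on the other strand and Gm6061 on the same strand had at most 32 counts in any library.

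Hmox1 and Nqo1, classical readouts of NRF2 activity, gave no call. Hmox1 encodes heme oxygenase 1, which degrades heme to biliverdin, iron and carbon monoxide. Hmox1 (ENSMUSG00000005413, chromosome 8, 75093621 to 75100589, plus strand) had 6505, 6378 and 6373 counts with PBS and 4592, 4370 and 4219 with LPS, which after scaling were 137, 141 and 138 CPM with PBS and 137, 134 and 124 CPM with LPS. LPS library 1 lay within the range of the PBS libraries, and the other LPS libraries lay below it. On the log2 scale the difference was -0.08 ± 0.04 (SE; edgeR adjusted p = 0.0861). It kept its sign over all 15 alternatives, between -0.48 with library size alone (edgeR adjusted p = 3.00e-09) and -0.04 without LPS replicate 3 (edgeR adjusted p = 0.395). The fit blocked by replicate number gave -0.08 and passed the test (edgeR adjusted p = 0.0298). It also passed with upper quartile scaling, with either other filter on low counts and without LPS replicate 1, with adjusted p between 5.62e-05 and 0.0441 by edgeR. Hmox2, the constitutive heme oxygenase gene, had a log2 fold change of -0.30 ± 0.04 (SE; edgeR adjusted p = 9.59e-06). The ratio of Hmox1 to Hmox2 per exon length was 1.21, 1.28 and 1.36 in PBS libraries and 1.54, 1.45 and 1.49 in LPS libraries, 1.16-fold higher. Nqo1 encodes a quinone reductase. Nqo1 (ENSMUSG00000003849, chromosome 8, 107388225 to 107403206, minus strand) had the fewest counts of the 10 genes, 131, 120 and 130 with PBS and 75, 81 and 92 with LPS. The levels were 2.74 ± 0.0811 and 2.47 ± 0.234 CPM (SD, n = 3 each), and LPS library 3 lay within the range of the PBS libraries. On the log2 scale the difference was -0.15 ± 0.13 (SE; edgeR adjusted p = 0.313). It was -0.55 with library size alone (edgeR adjusted p = 6.41e-04) and -0.29 with upper quartile scaling (edgeR adjusted p = 0.0490). A result past no threshold does not show that these genes kept their levels.

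Sod2 was the second most changed of the 10 genes. Its product turns superoxide into hydrogen peroxide in the mitochondrial matrix. Sod2 (ENSMUSG00000006818, chromosome 17, 13006846 to 13040063, plus strand) had 3677, 3352 and 3569 counts with PBS and 22332, 21469 and 22859 with LPS. The groups were far apart and each was narrow. Its level rose 8.72-fold, from 76.3 ± 1.79 to 665 ± 6.96 CPM (SD, n = 3 each), log2 fold change 3.12 ± 0.04 (SE; edgeR adjusted p = 8.40e-22). The log2 ratio within the batches was 3.11, 3.15 and 3.12, and 464 tested genes had a higher log2 fold change. Sod1, the cytosolic enzyme, had a log2 fold change of 0.18 ± 0.06 (SE; edgeR adjusted p = 0.0137), which was -0.22 with library size alone. The ratio of Sod2 to Sod1 per exon length was 0.348, 0.290 and 0.346 in PBS libraries and 2.55, 2.23 and 2.78 in LPS libraries, 7.68-fold higher. By this measure the order of the pair was turned. That order depends on the annotated exons, 10008 bases for Sod2 and 3970 for Sod1. Of 10012 stretches of 50 bases in Sod2 transcripts, 2107 also occur in transcripts of other genes. The gene with most of them, AC166110.4, had at most 2 counts in any library, and how reads shared in this way were counted is not given in the sources used here.

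**Figure D2:**
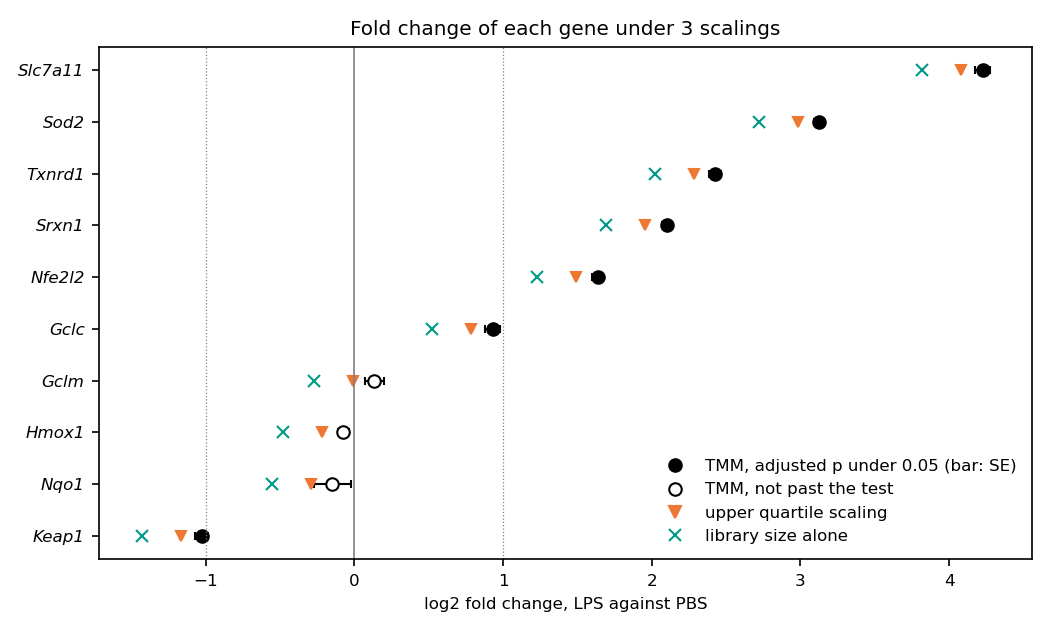
Log2 fold change of LPS against PBS for each of the 10 genes with TMM scaling (circles, bars are standard errors, filled where the adjusted p is under 0.05), upper quartile scaling (triangles) and library size alone (crosses). Dotted lines mark an absolute value of 1. A change of scaling shifts every gene by nearly the same amount, so the order of the genes is kept under the 3 scalings. Among them 6 genes stay above 0, Keap1, Nqo1 and Hmox1 stay below 0, and Gclm crosses it.

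Levels of different genes were compared as normalized CPM per kilobase of merged exons. In PBS libraries the order was Hmox1 (79.2 ± 1.33), Nfe2l2 (63.9 ± 1.42), Srxn1 (25.7 ± 0.521), Txnrd1 (16.8 ± 0.605), Keap1 (15.1 ± 0.489), Sod2 (7.62 ± 0.179), Gclc (4.71 ± 0.117), Gclm (3.33 ± 0.345), Nqo1 (1.77 ± 0.0522) and Slc7a11 (0.649 ± 0.0116), as mean ± SD over 3 libraries. In LPS libraries it was Nfe2l2 (198 ± 4.31), Srxn1 (110.0 ± 0.815), Txnrd1 (90.2 ± 3.46), Hmox1 (75.1 ± 3.85), Sod2 (66.4 ± 0.695), Slc7a11 (12.1 ± 0.548), Gclc (8.96 ± 0.218), Keap1 (7.39 ± 0.286), Gclm (3.66 ± 0.0624) and Nqo1 (1.59 ± 0.151). No neighbours in either order overlapped in their library values. The lists of exons include rarely used transcripts, and the exons of Slc7a11 (13922 bases) and Sod2 (10008 bases) are long, so a level per length depends on that annotation. Hmox1 stood first with PBS and behind Nfe2l2, Srxn1 and Txnrd1 with LPS, while Slc7a11 went from last place to the sixth.

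The genes with the most similar pattern over the 6 libraries were found for 4 of the 10 genes. Likeness was the root mean square difference between log2 CPM values (prior count 2) centred on each gene, over 12145 other protein-coding genes. The genes nearest to Sod2 were Gadd45b (0.0216), Cd14 (0.0377) and Coq10b (0.0433), and 25 genes lay within 0.1. Nearest to Nfe2l2 were Chic2 (0.0158), Stk17b (0.0233) and Baz1a (0.0259), with 101 genes within 0.1. Nearest to Slc7a11 were Tnip3 (0.0409), Zc3h12c (0.0438) and Rel (0.0547), with 17 genes within 0.1. Nearest to Hmox1 were Lst1 (0.0124), Scarb1 (0.0126) and Cnpy3 (0.0130), with 2415 genes within 0.1. With libraries in only 2 conditions, likeness mostly reflects the size of the fold change.

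**Figure D3:**
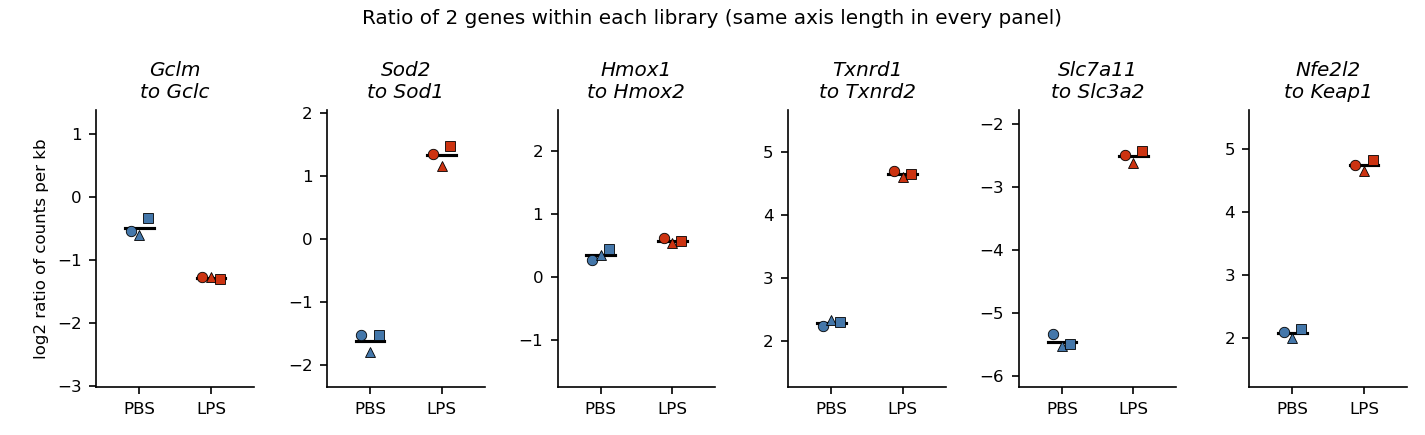
Log2 ratio of the counts per kilobase of 2 genes within each library, for 6 gene pairs, with 3 PBS libraries in blue and 3 LPS libraries in red (marker shapes are replicates 1 to 3, lines are means). Every panel spans the same length of axis. The groups do not overlap in any pair, Gclm to Gclc is lower with LPS and the other 5 ratios are higher.

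Genes that act with NRF2 were read from 6 further lists, as counts of genes past the same edgeR test. Rises smaller than the shift between scalings turn with the scaling, so the counts with library size alone stand beside them. Of all 15687 tested genes, 32.9% rose and 34.9% fell with TMM, and 15% rose and 65.9% fell with library size alone. Among partners, competitors and degradation factors of NRF2, 8 of 12 tested genes rose and 3 fell, with a median log2 fold change of 0.46, and with library size alone 5 rose and 5 fell. The largest rise was that of Maff, a small MAF partner, from 1.40 to 207 CPM (log2 fold change 7.21 ± 0.06 SE, edgeR adjusted p = 1.76e-23). Sqstm1, the autophagy receptor p62 that can sequester KEAP1, rose by a log2 fold change of 1.87 ± 0.03 (SE; edgeR adjusted p = 9.35e-19). Bach1, a repressor that competes with NRF2 at Hmox1 and other targets, rose from 237 to 581 CPM (1.29 ± 0.03 SE, edgeR adjusted p = 1.47e-16). RNA of the activator gene Nfe2l2 and of this repressor gene thus rose at the same time. Mafk, a further small MAF gene, and Rbx1, a subunit of the KEAP1 ligase, fell by 0.19 and 0.13 on the log2 scale, and Nfe2, with a mean of 28.7 counts, fell by 0.69. Cul3, the scaffold of that ligase, had a log2 fold change of 0.40, which was -0.0031 with library size alone. Nfe2l3 had too few counts to be tested.

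Among glutathione genes, 6 of 11 tested rose and 1 fell, with a median log2 fold change of 0.11, and with library size alone 4 rose and 7 fell. After Slc3a2, the highest were Glrx, a glutaredoxin (1.02), and Abcc1, an exporter of glutathione conjugates (0.78). The gene that fell was Gpx1, a glutathione peroxidase (-0.29, edgeR adjusted p = 2.28e-07). With the replicate block, 8 rose, with Gpx4 and Mgst1 added, and 2 fell, with Gss added. Of all tested genes, 32.9% rose and 34.9% fell with TMM, and 15% rose and 65.9% fell with library size alone. The falls among glutathione genes with library size alone were near that share. Among the thioredoxin, peroxiredoxin, superoxide dismutase and catalase genes, 6 of 15 rose and 2 fell, with a median of 0.10, and with library size alone 2 rose and 10 fell. Neither the rises with TMM nor the falls with library size alone were far from the share of all tested genes. Prdx6 (1.14), Prdx5 (0.62) and Txnrd3 (0.50) had the highest log2 fold changes among those that rose, and Txnrd3 did not pass the test with library size alone (0.09, edgeR adjusted p = 0.367). Those that fell were the stress-inducible sestrins Sesn1 (-1.54, edgeR adjusted p = 4.67e-17) and Sesn2 (-0.72, edgeR adjusted p = 3.10e-08). None of the genes in this list had a log2 fold change as high as Txnrd1, Srxn1 or Sod2.

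Among NADPH supply genes and other NRF2 targets, 8 of 14 rose and 3 fell, with a median of 0.16. With library size alone 2 rose and 11 fell. Beside these and the counts below, 32.9% of all tested genes rose and 34.9% fell with TMM. With library size alone 15% rose and 65.9% fell. Ugdh (0.59) and the ferritin gene Fth1 (0.52, from 5981 to 8561 CPM) kept a positive log2 fold change with library size alone (0.18 and 0.11), and Blvrb (0.29) did not (-0.12). Osgin1, an oxidative stress-induced growth inhibitor and NRF2 target, fell from 12.9 to 3.79 CPM (log2 fold change -1.76 ± 0.09 SE, edgeR adjusted p = 2.89e-12). Cbr3 and Idh1 fell by 0.40 and 0.10 on the log2 scale. No gene of this list rose past the fold criterion. All 6 genes of the phagocyte NADPH oxidase, which makes superoxide, rose, with a median of 0.40, and with library size alone 3 rose and 2 fell. The highest were Cybb (0.68) and Ncf1 (0.61). Of the 6 tested genes of the ATF4 amino acid response, a pathway known to induce Slc7a11, 5 rose and 1 fell, with a median of 0.47, and with library size alone 2 rose and 1 fell. Psat1 had a log2 fold change of 0.62. Phgdh had 0.60, which was 0.19 with library size alone (edgeR adjusted p = 0.184). Atf4 itself had 0.35, which was -0.05 with library size alone. Chac1, with a mean of 12.7 counts per library, had 1.84, and Trib3, the gene that fell, had -0.70. Whether this pathway acted on Slc7a11 was not tested. Ddit3 has 2 entries in the annotation and was left out.

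**Figure D4:**
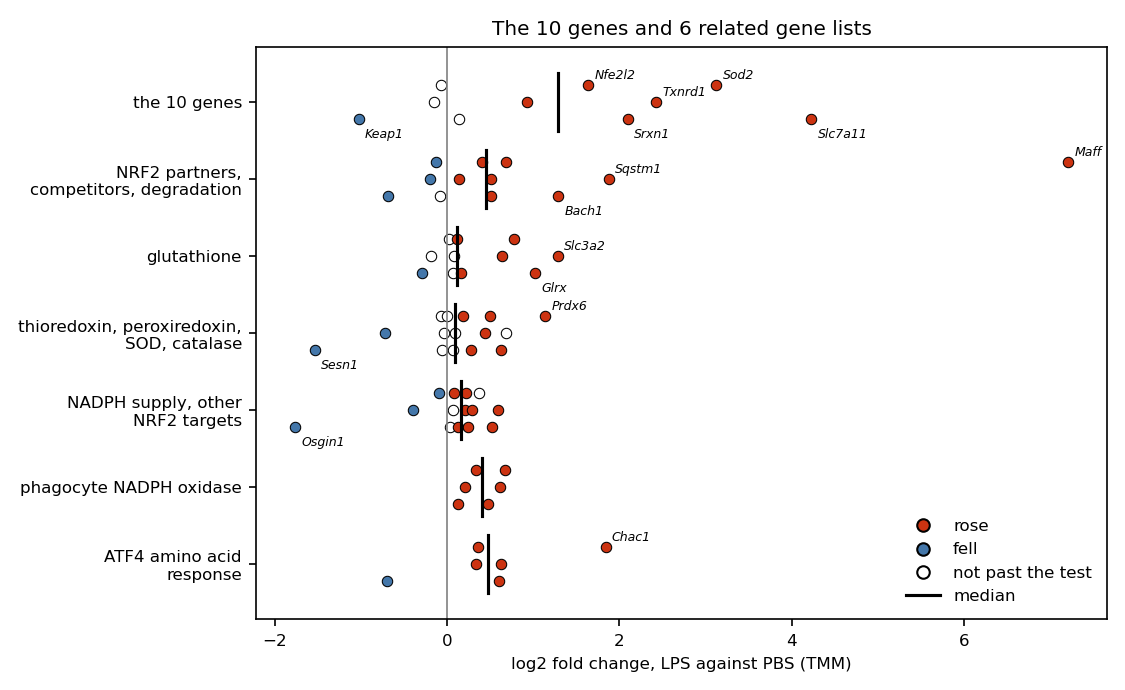
Log2 fold change of LPS against PBS with TMM scaling for the 10 genes and for the tested genes of 6 related lists. Each point is a gene, red where it rose, blue where it fell and white where it did not pass the test, the black lines are medians, and genes beyond an absolute value of 1 are named. The median of the 10 genes is 1.28, and the medians of the 6 lists lie between 0.10 and 0.47.

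The libraries held between 37787611 and 41516330 counts, and a floor of 3 counts was at most 0.0919 CPM, and each of the 10 genes had at least 75 counts in every library. Floors cover counting error only. The 6 macrophage markers were abundant, with a summed level of 6786 to 7107 CPM with PBS and 8143 to 8230 CPM with LPS. They did not move together. Fcgr1 fell (log2 fold change -0.48, edgeR adjusted p = 2.62e-10) and Mertk did not pass the test (-0.04, edgeR adjusted p = 0.294). Adgre1, Csf1r, Itgam and Cd68 rose by 0.20 to 0.35, less than the shift with library size alone. The 6 neutrophil markers summed to 14.1 to 16.1 and 18.6 to 20.6 CPM, with Ly6g at or under 3 counts in every library. The 4 fibroblast markers summed to 9.78 to 11.1 and 10.8 to 13.1 CPM, and the 3 B cell markers to 0.598 to 0.910 and 1.01 to 1.25 CPM. The 3 T cell markers summed to at most 0.376 CPM and the 3 erythroid markers to at most 0.298 CPM. The 3 dendritic cell markers summed to 1.195 to 1.45 CPM with PBS and 4.93 to 6.17 CPM with LPS, with Xcr1 at 2, 1 and 2 counts and 27, 17 and 15 counts. The part of these markers in the results was not tested.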

How the data were processed

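Total RNA of BMDMs was sequenced in 6 libraries at 1 h, 3 with PBS and 3 with LPS, grouped by the sample titles. The authors prepared stranded libraries, used HISAT2 2.1.0 and SAMtools 1.17 with GRCm38 as the genome, and deposited raw counts per gene from featureCounts 2.0.0. The annotation release, strand setting and handling of multi-mapped reads are not given in the sources used here. Of 55335 identifiers, 55154 matched GENCODE M21 without the version.

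Counts were tested in R 4.3.3 with edgeR 4.0.16 (filterByExpr, TMM, quasi-likelihood test, Benjamini-Hochberg adjustment over 15687 genes), without a batch term. Standard errors came from the F statistic. The study made pairwise comparisons with DESeq2. Alternatives were 3 scalings, 2 filters, DESeq2 1.42.0, limma 3.58.1 voom, the replicate block, leaving out the 10 most abundant genes and leaving out each library. The labels carry a batch number, equal to the replicate number in both groups, so the numbers pair the libraries. Deviations of same-numbered libraries had correlations between -0.0139 and 0.0822. The fits were tested on simulated data with far fewer changed genes than here and as many rises as falls. Such data cannot test the choice of scaling.

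The members, lists and tests were chosen with earlier results of these data known. From each list the text names up to 3 of the highest rises and 3 of the lowest falls with an adjusted p under 0.05 and a mean of at least 50 counts, and other names were added after their values were seen. One gene that this rule names is not reported here. With TMM factors averaging 1.15 with PBS and 0.869 with LPS, scaling moves the fold change of every gene.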

Additional observations from a re-analysis of the deposited data

How the results depend on the processing

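The 6 rises and the fall of Keap1 kept their direction and an adjusted p under 0.05 by edgeR, DESeq2 or limma voom under all 15 alternatives, with log2 fold changes between 3.82 and 4.26 for Slc7a11, 2.72 and 3.14 for Sod2, 2.02 and 2.45 for Txnrd1, 1.70 and 2.12 for Srxn1, 1.23 and 1.65 for Nfe2l2, 0.52 and 0.95 for Gclc, and -1.43 and -0.9997 for Keap1. Gclm turned to -0.27 with library size alone and to -0.0086 with upper quartile scaling. Of the 10 genes, 4 fell with library size alone, 3 with upper quartile scaling and 2 with either other filter. The replicate block gave 2 falls, and leaving out each library 1 to 2. Of all 15687 tested genes, 15% rose and 65.9% fell with library size alone. Falls over all tested genes numbered 7269 with upper quartile scaling and 5595 with the replicate block. No filter beyond 1 count gave 6089 of 27479, and 10 counts in every library 5007 of 13793. Leaving out each library gave 5194 to 5307. Past both criteria, 0 to 1 of the 10 genes and 1635 to 1711 of all tested genes fell when each library was left out. With library size alone, rises and falls numbered 5 and 5 for NRF2 partners, 2 and 10 for the thioredoxin list, 2 and 11 for NADPH supply, and 3 and 2 for NADPH oxidase. There were 7 falls for glutathione and 2 rises for ATF4. With upper quartile scaling there were 2 falls for glutathione, 6 falls for the thioredoxin list and 4 rises for NADPH supply. Over all 15687 tested genes, 3704 rose and 7269 fell with that scaling. Falls among glutathione genes numbered 2 with either other filter, limma voom, the replicate block and without the 10 most abundant genes. They numbered 1 to 2 when each library was left out. Over all tested genes, 5443 fell with limma voom and 5548 without the 10 most abundant genes. DESeq2's test gave 1 fall among NRF2 partners and 4753 over all tested genes, and leaving out each library gave 0 to 1 falls for ATF4. The filter of 10 counts in every library left 2168 genes past both criteria of 13793 tested. The causes were not tested. The replicate block changed the call of Hmox1 and Gclm and of no other of the 10 genes, and in the lists that of Gss, Gpx4, Mgst1, Txn2 and Blvra. The 6 ratios stayed within the spread between libraries when 0.5 count was added and when each library was left out. Their mean within pairs equals the difference of the group means, so it is no separate check. Levels per length moved by more than 1 SD with library size alone. At 75 to 131 counts per library, the depth limits Nqo1 most.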
